A study of Mus musculus with 34 samples.

Results

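The genes of the proteasome were read from bulk RNA-seq of the mouse dorsal hippocampus. Members were the protein-coding genes whose GENCODE symbol begins with Psm, followed by a letter from a to g and a digit. The rule found 50 of the 54532 genes in the count table, and all 50 passed the filter on low counts and were tested. By their known roles, 7 are core alpha and 7 are core beta subunits, 9 are base and 8 are lid subunits, 3 are immunoproteasome subunits, 2 are core subunits restricted to other tissues, 7 are assembly chaperones and 6 are activators or an inhibitor. The last match, *Psmc3ip*, is not a proteasome subunit: its product acts in meiotic recombination. Another 4 genes with such symbols (*Psmb5-ps*, *Psmb6-ps*, *Psmb6-ps2* and *Psmb7-ps2*) are pseudogenes and were left out.

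The samples came from adult males of the C57BL/6J strain. Homecage controls (4 samples) were set against mice trained in spatial object recognition (SOR), a hippocampus-dependent task, whose tissue was taken 1 h later (4 samples). No transgene or drug is named for either group, and mice were 2 to 3 months old, singly housed and handled, while homecage mice were euthanized at the same time of day. The comparison asks which transcripts differ early in memory consolidation. The sample labels do not say that each library is a separate animal. The spatial and single-nucleus data were not analysed here.

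The proteasome degrades proteins that carry chains of ubiquitin. Its barrel-shaped 20S core holds rings of alpha subunits, which gate the entrance, and rings of beta subunits, which carry the active sites. The 19S particle caps the core: its base of ATPases unfolds the substrate, and its lid removes the ubiquitin. Together these form the 26S proteasome. In neurons, protein degradation at synapses is known to be needed for lasting plasticity and memory, and proteasome inhibitors in the hippocampus impair consolidation. When cells lose proteasome activity, the transcription factor Nfe2l1 raises the subunit genes together through antioxidant response elements in their promoters, while interferon induces the immunoproteasome genes.

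Short stretches of promoter show what such elements look like in some of the members. They were found by a letter search of RefSeq promoter windows (GRCm38.p6, 250 bases before to 50 bases after the start of the gene), which were at hand for 42 of the 50 members. Each is given 5′ to 3′ on the strand of the gene, with the match in capitals. The first set holds the antioxidant response motif TGACNNNGC or its reverse complement, in *Psmb5* (chr14:54618026-54618050, minus strand), *Psmb6* (chr11:70525340-70525364, plus strand) and *Psme4* (chr11:30771760-30771784, plus strand).
Psmb5: tgaagttgTGACGTCGCggcgttgc
Psmb6: aaagagagTGACGGAGCgctttacg
Psme4: ctgcggctGCAGCGTCAccagaaga

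The second set is shown for interferon. It holds the interferon-stimulated response element, searched as GAAA, any 2 bases and GAAA again, as its reverse complement in *Psme1* (chr14:55578495-55578520, plus strand) and *Psmb3* (chr11:97703263-97703288, plus strand), and the STAT motif TTCNNNGAA in *Psmb8* (chr17:34198090-34198114, plus strand).
Psme1: agctgtgcTTTCGCTTTCccttcccg
Psmb3: cagtgactTTTCACTTTCcgctttcc
Psmb8: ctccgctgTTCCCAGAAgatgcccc

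Searched on both strands, TGACNNNGC was in the windows of 6 members (14.3%), and of 3781 of all 27025 genes with a window. The interferon-stimulated element was in 5 members (11.9%) against 3.99% of all genes, TTCNNNGAA in 3 members (7.14%) against 9.55%, and CCAAT, the box bound by NF-Y, in 15 members (35.7%) against 41.1%. Such matches are letters in a window and not binding sites, and N stands for any base. The windows of the immunoproteasome genes *Psmb8*, *Psmb9* and *Psmb10* held no match to the interferon-stimulated element.

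The hippocampal identity of the libraries showed in the markers. Summed markers of neurons lay between 5730 and 6330 CPM (counts per 1e6 of the scaled library) in the homecage samples and between 5870 and 6300 CPM in the SOR samples, and CA1 and dentate granule markers were present in every library. Total counts lay between 51406011 and 81525977 per library. Choroid plexus markers differed most between libraries, from 24.9 to 1085 CPM in the homecage samples and from 41.0 to 3966 CPM in the SOR samples, with SOR 1 highest. Oligodendrocyte markers summed to 5280 to 5760 CPM in the homecage samples and 4320 to 5670 CPM in the SOR samples, and 6 of 6 were lower after SOR without passing the test. In bulk tissue, fewer cells of a type and less RNA per cell cannot be told apart.

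Genes of the 26S proteasome were abundant, and the levels of its core, base and lid genes overlapped. To compare genes, levels are given as CPM per kilobase (kb) of the median coding transcript, as means over the 8 samples. The class medians were 47.2 CPM per kb for core alpha genes, 52.3 for core beta genes, 60.4 for the 6 base ATPases, 57.9 for the 3 other base subunits and 33.7 for the lid. The 31 genes of the constitutive 26S proteasome together took between 0.212% and 0.226% of the scaled library in each sample. Assembly chaperones, which leave the finished particle, had a median of 6.74 CPM per kb, and their range from 5.66 (*Psmg3*) to 9.78 (*Psmd5*) lay below every one of these 31 genes. This separation depends on the length used. Per kb of all merged exons, the chaperone *Psmd10* (6.47) lay above the lid gene *Psmd11* (4.92).

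Among the 31 subunit genes, *Psmb6*, the caspase-like active site, was highest at 111 CPM per kb and *Psmd11*, a lid subunit that clamps the lid to the core, was lowest at 14.1, a ratio of 7.87. The order held at both ends in each of the 8 samples. With the length of all merged exons in place of the coding transcript, the ratio was 14.2 and *Psmc5* was highest, so the top of the order depends on the length used. The ATPase *Psmc3* followed *Psmb6* with 96.9 CPM per kb, and the core alpha genes ran from 24.2 (*Psma2*) to 63.8 (*Psma4*). A processed transcript, *A730017L22Rik*, with 21.3 CPM matches *Psmd11* at 97.935% identity over 1501 bases, and reads could be split between them.

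**Figure D1:**
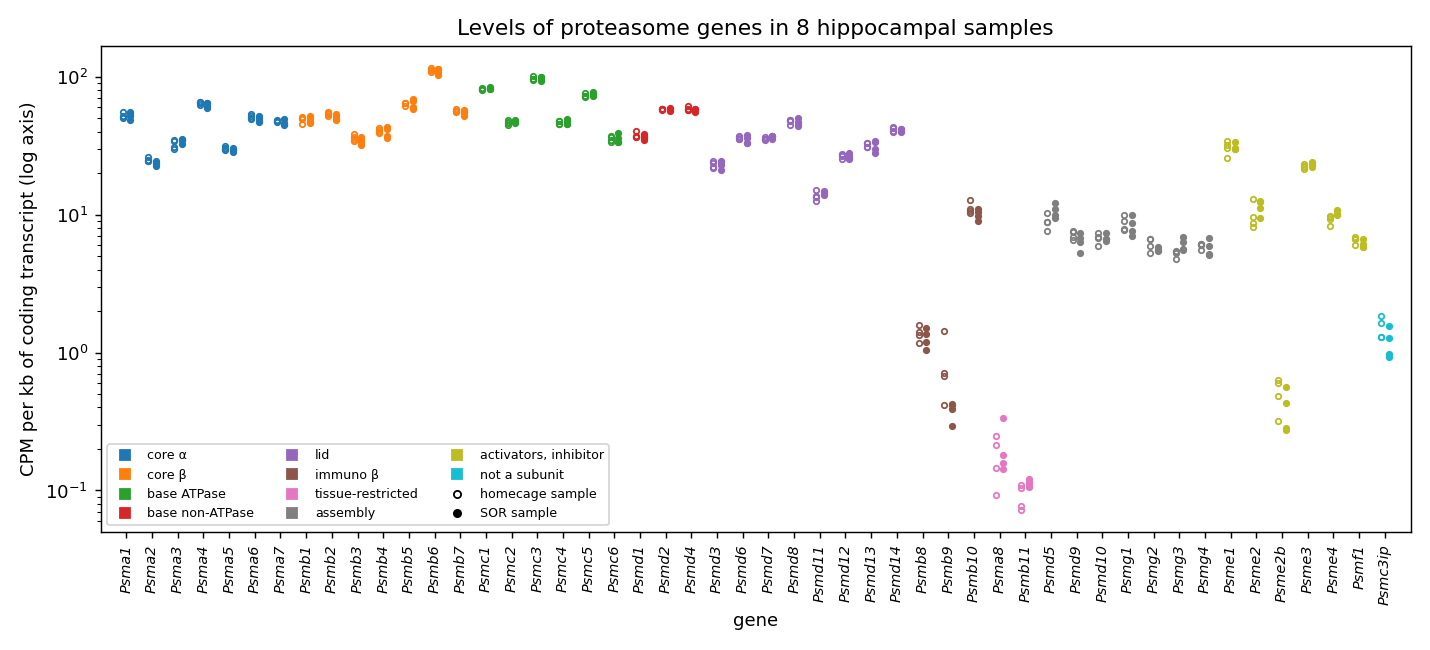
Level of each of the 50 genes in CPM per kb of coding transcript (log axis), by class, with 1 open circle per homecage sample and 1 filled circle per SOR sample. The 31 core, base and lid genes lie between 14.1 and 111 on average, the assembly genes below them, and *Psmb8*, *Psmb9*, *Psma8*, *Psmb11*, *Psme2b* and *Psmc3ip* near or below 1.

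None of the 50 genes differed between SOR and homecage at an adjusted p under 0.05 in the quasi-likelihood F test of edgeR (Benjamini-Hochberg over 22018 genes), whereas 60 of all genes tested were higher (0.273%) and 8 were lower (0.0363%). The count of members was also 0 in either direction by the likelihood ratio test of edgeR, by limma-voom and, for the 49 members it gave an adjusted p, by DESeq2. At an unadjusted p under 0.05, 3 members were higher (*Psme4*, *Psmd5* and *Psmg3*), against 4.54% of all genes, and 1 was lower (*Psmb9*), against 5.51% of all genes. These 4 members compare with 10.1% of all genes in either direction. With a fold change above 1.4 also required, 0.15% of all genes were higher and 0.0227% lower, and 0 members. The lowest adjusted p of a member was 0.306. Every SOR sample lay above every homecage sample for 2 members, *Psme4* and *Psmg3*, against 2.98% of all genes, and for 0 members did every SOR sample lie below, against 3.96%.

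The fitted differences centered on 0. The members had a median log2 fold change of -0.02, as did all genes, with 19 members higher and 31 lower, where 43.8% of all genes were higher and 56.2% lower. With TMM factors 26 were higher and 24 lower, as that scaling moved the median log2 fold change of all genes from -0.0193 to 0.000582 and that of the members from -0.0183 to 0.00242. Summed over the 50 genes, the samples held 2433, 2549, 2480 and 2472 CPM in homecage mice and 2549, 2442, 2402 and 2509 CPM after SOR, means of 2484 ± 48.2 and 2476 ± 65.7 (SD, n = 4). The groups overlapped in this sum.

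The median member was measured more precisely than the median of all genes tested, which were not matched to the members in level. Members of low level were imprecise, with standard errors of the log2 fold change of 0.396 (*Psma8*), 0.341 (*Psmb9*) and 0.317 (*Psme2b*). The median SD between samples of a group was 0.0652 (homecage) and 0.0747 (SOR) on the log2 scale for the members, against 0.132 and 0.171 for all genes tested. The median standard error of a log2 fold change was 0.0561, against 0.121. Accordingly, the 95% intervals of all 31 core, base and lid genes stayed within a 1.2-fold difference in either direction, as did 35 of the 50 members, and 44 of the 50 stayed within the fold change of 1.4 that the study required.

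**Figure D2:**
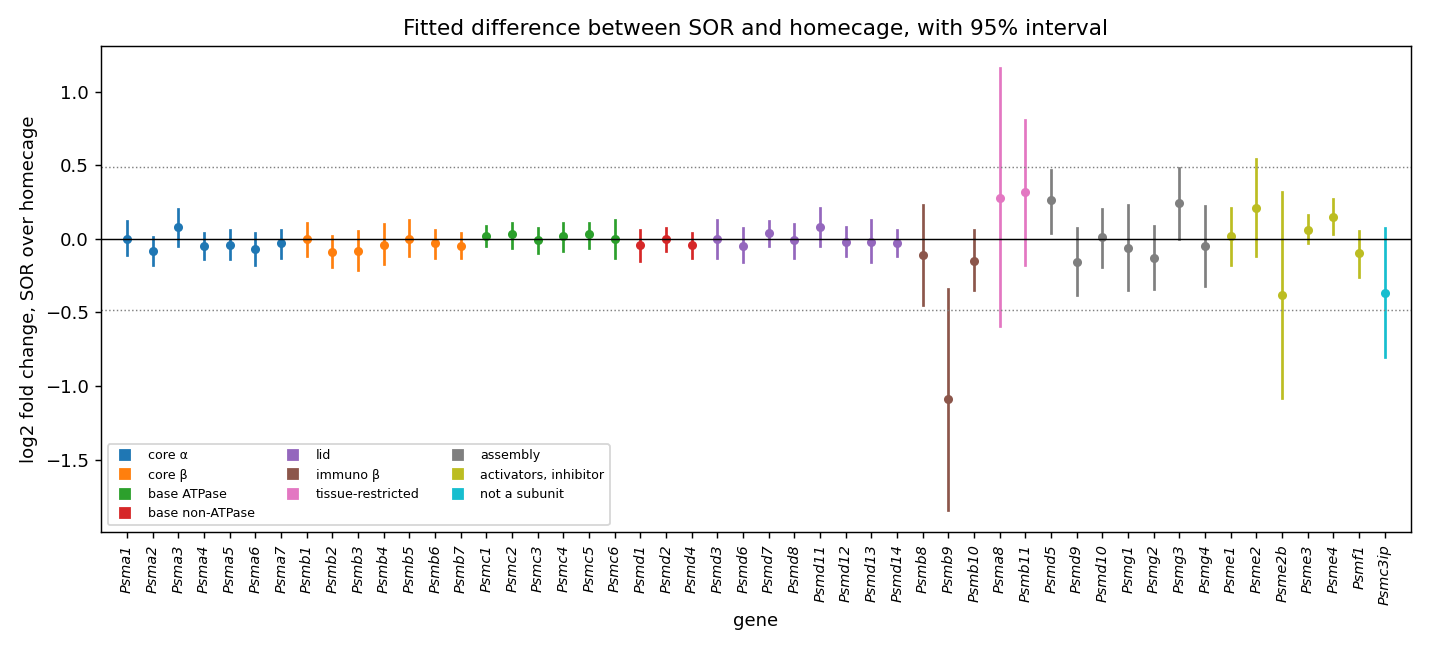
Fitted log2 fold change of SOR over homecage for each gene (point) with its 95% interval (line), by class; dotted lines mark a fold change of 1.4 in either direction. The intervals of the 31 core, base and lid genes are short and include 0, and *Psmb9* lies lowest at -1.09 with a wide interval.

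The core alpha genes form the rings that gate the barrel. Of these 7, 2 had a positive and 5 a negative log2 fold change, with a median of -0.04, and 0 had an unadjusted p under 0.05. *Psma2* had the lowest value of the class. Its samples held 72.0, 76.3, 70.7 and 71.4 CPM in homecage mice and 69.2, 71.7, 65.2 and 67.9 CPM after SOR. Most SOR samples lay below the homecage samples, but SOR 2 lay within their range (log2 fold change -0.08, SE 0.0431, adjusted p = 0.551). *Psma3* had the highest value of the class, with 55.6, 64.8, 63.6 and 57.6 CPM against 60.3, 64.4, 65.6 and 64.4 CPM. The groups overlapped widely (log2 fold change 0.08, adjusted p = 0.703), and a processed pseudogene, *Gm13835*, matches *Psma3* over 665 bases and held 9.1 CPM.

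The core beta genes include the active sites of the constitutive proteasome. Of the 7, 1 was higher and 6 were lower (median log2 fold change -0.04), with 0 at an unadjusted p under 0.05. *Psmb5*, the chymotrypsin-like site, held 46.3, 48.9, 49.0 and 48.8 CPM in homecage mice and 50.3, 44.6, 46.1 and 52.4 CPM after SOR. The SOR samples spread around the homecage samples on both sides (48.2 ± 1.30 against 48.3 ± 3.63 CPM, SD, n = 4; log2 fold change 0.00, adjusted p = 0.996). *Psmb6* held 86.9, 89.5, 89.0 and 92.3 CPM against 90.1, 90.8, 82.1 and 86.4 CPM, again with overlapping groups (log2 fold change -0.03, adjusted p = 0.846).

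*Psmb7*, the trypsin-like site, held 65.8, 68.0, 65.8 and 63.9 CPM in homecage mice and 64.5, 64.0, 60.7 and 66.1 CPM after SOR. SOR 3 was lowest and the other SOR samples lay within the homecage range (log2 fold change -0.05, adjusted p = 0.768). *Psmb2*, which has no catalytic activity, had the lowest value of the class. It held 44.4, 46.4, 46.8 and 47.5 CPM against 45.8, 41.8, 42.4 and 44.3 CPM, so that only SOR 1 exceeded the lowest homecage sample (log2 fold change -0.09, SE 0.0455, adjusted p = 0.568). Over the 14 core genes the summed level was 810.5 ± 20.2 CPM in homecage mice and 793.4 ± 25.9 CPM after SOR (SD, n = 4), and the 95% bounds of the single genes ran from a fold of 0.862 to 1.15.

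The immunoproteasome genes encode subunits that replace the 3 active sites of the core, with *Psmb8* in place of *Psmb5*, *Psmb9* in place of *Psmb6* and *Psmb10* in place of *Psmb7*. They are known from immune cells and from interferon treatment, where they change which peptides are cut for antigen presentation. All 3 had a negative log2 fold change, with a median of -0.15, and none passed the test after adjustment. *Psmb10* was by far the most abundant with 10.6 CPM per kb, *Psmb8* had 1.33 and *Psmb9* had 0.595.

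*Psmb9* had the lowest log2 fold change of the 50 members. It held 0.563, 0.955, 1.95 and 0.916 CPM in homecage mice and 0.524, 0.558, 0.399 and 0.570 CPM after SOR. Homecage 3 stood above the rest, and homecage 1 lay just below SOR 4, so the groups overlapped. The log2 fold change was -1.09 (SE 0.341, 95% interval -1.84 to -0.34), the unadjusted p was 0.0089 and the adjusted p was 0.306 in the test of edgeR. An exact two-sided permutation test of log2 CPM gave p = 0.0571, where the smallest p that 4 against 4 allows is 0.0286. Without homecage 3 the log2 fold change was -0.67.

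The depth behind *Psmb9* was low, between 25.98 and 108.8 estimated counts per sample. The gene lies at chr17:34181987-34187764 and overlaps *Tap1*, a peptide transporter of antigen presentation, on the opposite strand over 212 bases. The library kit keeps the strand, but the strand setting of the counting is not stated. *Tap1* held 2.22, 2.58, 2.11 and 2.27 CPM in homecage mice and 2.25, 1.32, 1.52 and 2.12 CPM after SOR, so its homecage 3 sample did not stand out (log2 fold change -0.35, adjusted p = 0.554). Microglia markers, which mark the resident immune cells of the brain, summed to 321 to 370 CPM in homecage mice, with homecage 3 highest, and 313 to 354 CPM after SOR; 8 of 10 were lower after SOR and none was at 0 in every sample. Their part in the *Psmb9* values was not tested.

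*Psmb8*, the neighbor of *Tap1* on its other side, held 1.91, 2.60, 2.18 and 2.30 CPM in homecage mice and 2.23, 1.96, 1.69 and 2.45 CPM after SOR. The groups overlapped (log2 fold change -0.11, SE 0.152, adjusted p = 0.862). *Psmb10* held 13.4, 16.6, 14 and 14.5 CPM against 14.4, 11.7, 12.9 and 13.7 CPM. SOR 2 and SOR 3 lay below every homecage sample and the others did not (log2 fold change -0.15, SE 0.0923, adjusted p = 0.64).

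Each immunoproteasome gene was lower in the hippocampus than the constitutive gene it replaces. Per kb of coding transcript, *Psmb10* was at 19.6 ± 1.57% of *Psmb7* in homecage mice and 18.3 ± 1.56% after SOR (SD, n = 4). *Psmb8* was at 2.17 ± 0.236% of *Psmb5* and 2.01 ± 0.206%. *Psmb9* was at 0.722 ± 0.394% of *Psmb6* and 0.346 ± 0.0434%, the homecage spread coming from homecage 3 at 1.29%. These shares depend on the length used. The merged exons of *Psmb7* span 3421 bases against 1160 for its coding transcript, and those of *Psmb10* span 1705 against 1311. Per kb of merged exons, the share of *Psmb10* was therefore larger than given here, while those of *Psmb8* and *Psmb9* were smaller. With that length too, the mean of each immunoproteasome gene lay below that of its constitutive gene. Part of the *Psmb7* reads could come from *Nek6*, which overlaps it on the opposite strand, since their transcripts share 255 bases.

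**Figure D3:**
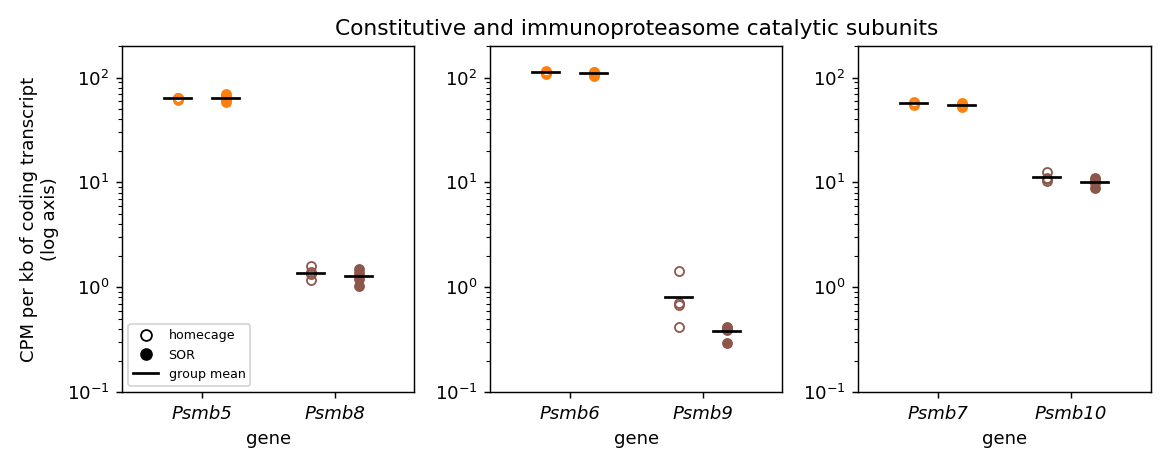
Levels of the constitutive active-site genes and their immunoproteasome counterparts in CPM per kb of coding transcript (log axis), 1 circle per sample, open for homecage and filled for SOR, with group means as lines. Each counterpart lies below its constitutive gene in all 8 samples, and *Psmb9* has 1 homecage sample above the others.

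A pair of core subunits belongs to other tissues. *Psma8* takes the place of *Psma7* in the testis, and *Psmb11* takes the place of *Psmb5* in the thymus and lies next to it on chromosome 14. Both were near the bottom of the genes tested, at 0.19 and 0.102 CPM per kb, and with 9.79 to 37.74 estimated counts per sample. *Psma8* held 0.291, 0.197, 0.339 and 0.126 CPM in homecage mice and 0.457, 0.216, 0.246 and 0.196 CPM after SOR, with overlapping groups (log2 fold change 0.28, SE 0.396, adjusted p = 0.862). *Psmb11* held 0.309, 0.463, 0.446 and 0.326 CPM against 0.511, 0.450, 0.491 and 0.471 CPM. SOR 2 lay within the homecage range and the other SOR samples above it (log2 fold change 0.32, SE 0.224, adjusted p = 0.685). At this depth only large differences in these genes were detectable.

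The base ATPases pull the substrate into the core. Of the 6, 4 were higher and 2 were lower (median log2 fold change 0.02), and the 95% intervals of all 6 stayed within a 1.1-fold difference. *Psmc1* varied least between samples of a group among the 31 subunit genes, with a coefficient of variation of 1.31%, and its samples lay between 127 and 133 CPM. *Psmc2* had the highest value of the class, with 83.0, 86.0, 79.6 and 82.1 CPM in homecage mice and 84.2, 86.8, 84.8 and 81.6 CPM after SOR. The groups overlapped (log2 fold change 0.03, adjusted p = 0.855). *Psmc3* had the lowest value, with 158, 166, 157 and 156 CPM against 162, 152, 154 and 163 CPM. Its log2 fold change of -0.01 changed sign with TMM scaling (adjusted p = 0.942).

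The 3 other base subunits bind ubiquitin, its shuttle proteins or the lid. All 3 had a negative log2 fold change, with a median of -0.04, and 0 had an unadjusted p under 0.05. *Psmd1*, the scaffold of the base, held 125, 116, 114 and 113 CPM in homecage mice and 120, 111, 108 and 115 CPM after SOR. The groups overlapped, with homecage 1 highest (log2 fold change -0.04, adjusted p = 0.819). *Psmd2*, where shuttle proteins dock, held 174, 174, 173 and 171 CPM against 172, 175, 168 and 174 CPM. Its log2 fold change of -0.00 changed sign with TMM scaling (adjusted p = 0.981). *Psmd4*, a ubiquitin receptor, had 78.2 ± 2.48 CPM in homecage mice and 75.9 ± 1.66 CPM after SOR (SD, n = 4).

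The lid holds *Psmd14*, the enzyme that cuts ubiquitin chains off the substrate, and 7 other genes. Of the 8, 3 were higher and 5 were lower (median log2 fold change -0.02). *Psmd14* had 64.1 ± 2.65 CPM in homecage mice and 62.8 ± 1.45 CPM after SOR (SD, n = 4; log2 fold change -0.03, adjusted p = 0.865). *Psmd11* had the highest value, with 28.3, 33.6, 29.9 and 30.6 CPM against 31.3, 31.7, 33.2 and 32.9 CPM. The SOR samples lay within the homecage range (log2 fold change 0.08, SE 0.059, adjusted p = 0.723). *Psmd6* had the lowest, with 49.2, 51.7, 50.8 and 49.5 CPM against 52.3, 46.3, 46.2 and 50.2 CPM. Its SOR samples spread to both sides of the homecage samples (log2 fold change -0.05, adjusted p = 0.824). *Psmd13* varied most between samples of a group among the 31 subunit genes, with a coefficient of variation of 6.9%, and overlaps *Sirt3* on the opposite strand. Over base and lid the summed level was 1395 ± 21.3 CPM in homecage mice and 1392 ± 33.9 CPM after SOR.

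The assembly chaperones build the particle and then leave it: *Psmg1* to *Psmg4* act on the alpha ring, and *Psmd5*, *Psmd9* and *Psmd10* act on the base. Of the 7, 3 were higher and 4 were lower (median log2 fold change -0.05), and 2 of the 3 members with the lowest p among the higher ones are here. *Psmd5* held 33.3, 38.7, 39.1 and 45.4 CPM in homecage mice and 53.3, 48.5, 41.6 and 43.9 CPM after SOR. SOR 1 and SOR 2 lay above every homecage sample, while homecage 4 exceeded the other SOR samples. The log2 fold change was 0.26 (SE 0.0986, unadjusted p = 0.0254, adjusted p = 0.422 by edgeR), and it was 0.19 without SOR 1.

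*Psmg3* held 3.87, 4.30, 4.39 and 4.23 CPM in homecage mice and 5.61, 4.56, 4.51 and 5.15 CPM after SOR. Every SOR sample lay above every homecage sample, SOR 3 by a small margin. The log2 fold change was 0.24 (SE 0.107, unadjusted p = 0.0469, adjusted p = 0.49 by edgeR), and it was 0.17 without SOR 1. *Psmg4*, the partner of *Psmg3*, had 3.07 ± 0.141 CPM in homecage mice and 2.96 ± 0.407 CPM after SOR (SD, n = 4; log2 fold change -0.05, adjusted p = 0.932). *Psmd9* had the lowest value of the class, with 17.1, 19.4, 18.0 and 19.9 CPM against 16.5, 13.6, 17.5 and 19.2 CPM. SOR 2 lay far below the rest, and the other SOR samples were closer to the homecage samples (log2 fold change -0.16, SE 0.101, adjusted p = 0.647).

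The activators are caps other than 19S that open the core. Of these 5 genes and the inhibitor *Psmf1*, 4 were higher and 2 were lower (median log2 fold change 0.04). *Psme4* encodes PA200, a nuclear cap linked to the degradation of acetylated histones. It held 63.6, 62.1, 60.8 and 53.8 CPM in homecage mice and 64.7, 66.0, 70.4 and 65.3 CPM after SOR. Every SOR sample lay above every homecage sample, and homecage 4 was the lowest by a wide margin. The log2 fold change was 0.15 (SE 0.0561, 95% interval 0.03 to 0.27, unadjusted p = 0.0225, adjusted p = 0.404 by edgeR). The exact two-sided permutation p was 0.0286, the smallest that the design allows, and without homecage 4 the log2 fold change was 0.10.

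*Psme1* and *Psme2* are neighbors on chromosome 14 and encode the PA28 cap, which interferon induces. *Psme2* held 7.12, 7.68, 11.4 and 8.47 CPM in homecage mice and 9.87, 10.9, 8.26 and 11 CPM after SOR. Homecage 3 was the highest of all, so the groups overlapped (log2 fold change 0.21, SE 0.151, adjusted p = 0.695). *Psme1* had 21.8 ± 2.59 CPM and 22.0 ± 1.37 CPM (SD, n = 4), and it too was highest in homecage 3. *Psme2b*, whose transcript is 99.37% identical to *Psme2* over 794 bases, held 0.527, 0.407, 0.268 and 0.502 CPM against 0.471, 0.360, 0.230 and 0.236 CPM. Since reads could be split between them, its log2 fold change of -0.38 (SE 0.317, adjusted p = 0.747) is uncertain.

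*Psme3*, the nuclear cap PA28 gamma, had 59.4 ± 2.33 CPM in homecage mice and 62.0 ± 2.03 CPM after SOR (SD, n = 4; log2 fold change 0.06, adjusted p = 0.685). *Psmf1* had 17.0 ± 0.914 CPM and 15.9 ± 1.03 CPM (log2 fold change -0.10, adjusted p = 0.675). *Psmc3ip*, the symbol match that is not a subunit, held 1.67, 1.68, 2.11 and 2.37 CPM in homecage mice and 1.2, 2.00, 1.64 and 1.26 CPM after SOR. Its groups overlapped (log2 fold change -0.37, SE 0.196, adjusted p = 0.573), and it shares 385 bases with *Mlx* on the opposite strand, which held 16.5 CPM.

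Across the samples the members moved in small steps that cut across the groups. SOR 1 was the highest of the 8 samples for 17 of the 50 members and homecage 2 for 12. SOR 3 was the lowest for 18 members, homecage 1 for 12 and SOR 2 for 9. High and low samples were thus found in both groups. SOR 1 was also the sample with the most choroid plexus RNA, whose part in these values was not tested.

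**Figure D4:**
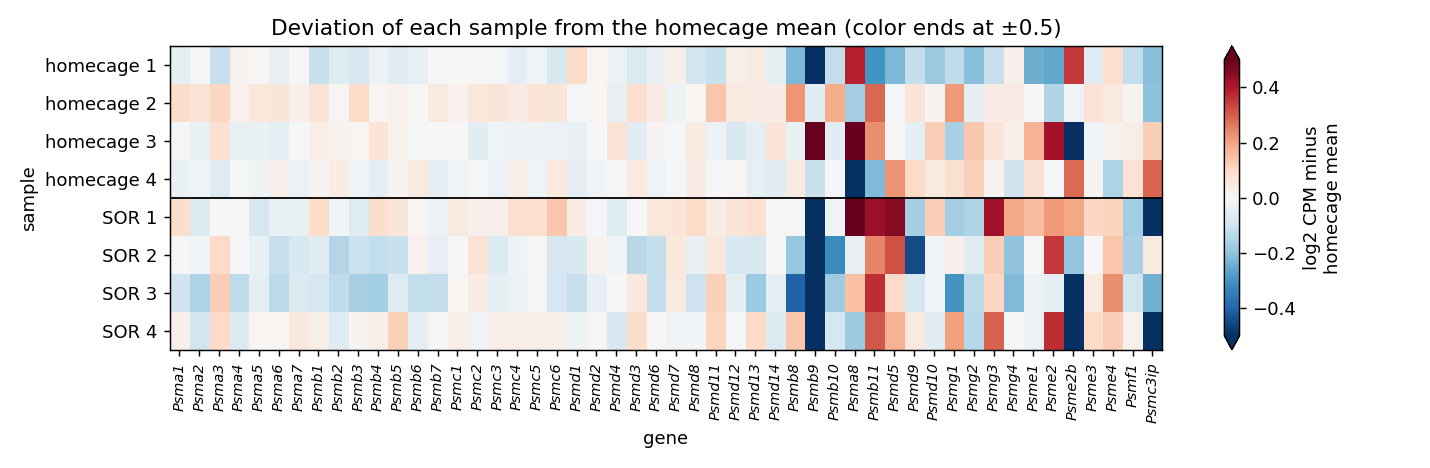
Log2 CPM of each gene in each sample minus the homecage mean of that gene, red above and blue below, with colors ending at 0.5 in either direction and a line between the homecage and SOR samples. Most core, base and lid genes are pale in every sample, and the strongest colors are in genes of low level such as *Psmb9*, *Psma8* and *Psme2b*.

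The proteasome also depends on genes without a Psm symbol. Of 11 other subunits and partners, 6 were higher and 5 lower after SOR (median log2 fold change 0.01), and 0 passed the test at an adjusted p under 0.05 by edgeR or DESeq2. *Pomp*, the maturation factor of the core, had 52.3 ± 2.08 CPM in homecage mice and 52.5 ± 5.06 CPM after SOR, and the ubiquitin receptor *Adrm1* had 32.3 ± 1.28 and 33.0 ± 0.965 CPM (SD, n = 4). The lowest p was that of *Zfand5*, a proteasome-binding protein that stimulates degradation. It held 97.1, 105, 106 and 105 CPM in homecage mice and 90, 89.9, 93.6 and 93.1 CPM after SOR. Every SOR sample lay below every homecage sample (log2 fold change -0.17, SE 0.0395, unadjusted p = 0.00129), but the adjusted p was 0.138.

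Of 15 genes that supply or deliver ubiquitin, 7 were higher and 8 lower (median log2 fold change -0.00), and 0 passed the adjusted threshold by edgeR against 1, a higher gene, by DESeq2, which called 1.53% of the 19484 genes with an adjusted p as higher and 0.554% as lower. *Uba6*, an enzyme that activates ubiquitin, had the lowest p. It held 37.8, 36.7, 36.8 and 36.9 CPM in homecage mice and 48.8, 42.2, 41.3 and 44.0 CPM after SOR. Every SOR sample lay above the narrow homecage range (log2 fold change 0.25, SE 0.0558, unadjusted p = 0.00103, adjusted p = 0.127 by edgeR). *Ubb*, a gene of ubiquitin itself, had 614 ± 4.27 CPM in homecage mice and 605 ± 17.4 CPM after SOR (SD, n = 4; log2 fold change -0.02, adjusted p = 0.893).

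Of 10 transcriptional regulators of proteasome genes, 8 were higher and 2 lower (median log2 fold change 0.13). None passed the adjusted threshold by edgeR, 5 were higher at an unadjusted p under 0.05, where 4.54% of all genes were, and DESeq2 called 2 as higher. *Ddi2*, the protease that activates Nfe2l1, had the lowest p. It held 76.0, 72.0, 76.3 and 76.4 CPM in homecage mice and 81.9, 87.8, 82.3 and 88.2 CPM after SOR. Every SOR sample lay above every homecage sample (log2 fold change 0.18, SE 0.0414, unadjusted p = 0.00141, adjusted p = 0.143 by edgeR). *Nfe2l1* itself had 211 ± 8.61 CPM in homecage mice and 220 ± 11.1 CPM after SOR (SD, n = 4; log2 fold change 0.06, adjusted p = 0.75).

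Of 8 genes of antigen presentation and interferon signaling, 2 were higher and 6 lower (median log2 fold change -0.15), and 0 passed the test at an adjusted or an unadjusted p under 0.05. *Tap1* had the lowest p of the list. All 8 cytosolic heat shock genes had a positive log2 fold change, with a median of 0.61. At an unadjusted p under 0.05 by edgeR, 7 of the 8 were higher, against 4.54% of all genes. For 7 of the 8, every SOR sample lay above every homecage sample, against 2.98% of all genes. The study had already named *Hspa1a*, *Hspa1b*, *Hsph1* and *Hspb1* among the genes that differed in its bulk RNA-seq. These counts are therefore not independent of the choice of the list and describe it only. After adjustment, 1 of the 8 passed the test. This was *Dnajb1*, a cochaperone of Hsp70, which rose from 26.7, 21.9, 23.4 and 23.3 CPM in homecage mice to 54.1, 35.4, 39.1 and 34.3 CPM after SOR (log2 fold change 0.77, SE 0.133, adjusted p = 0.0445 by edgeR). SOR 1 was the highest sample for 8 of these 8 genes. Leaving out 1 sample at a time moved the number of heat shock genes called between 0 and 3. It was 0 without any 1 homecage sample or without SOR 2, SOR 3 or SOR 4, and 3 without SOR 1. Whether the lists differ from the proteasome genes was not tested.

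**Figure D5:**
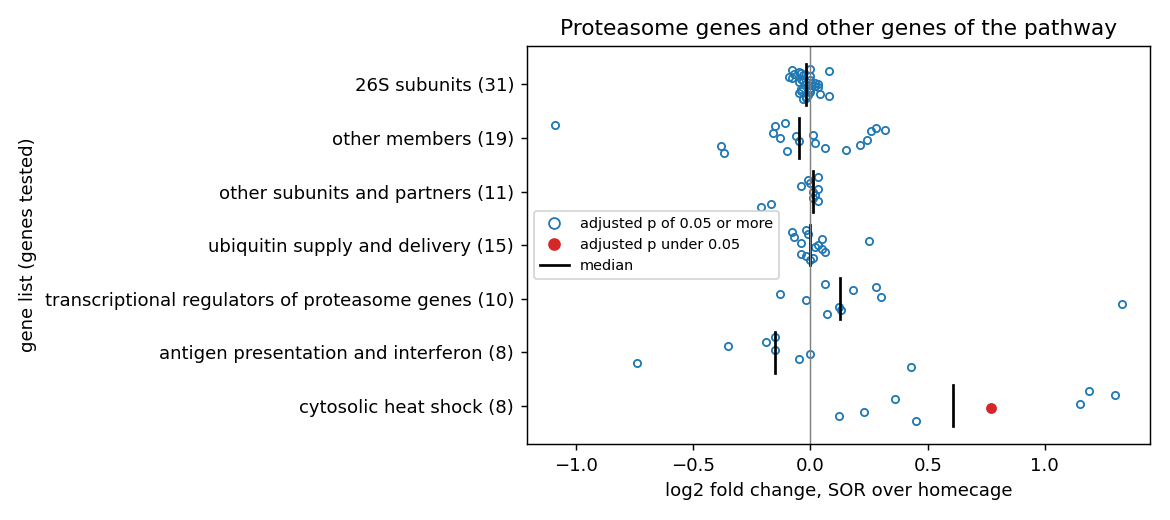
Log2 fold change of SOR over homecage for the 31 core, base and lid genes, the 19 other members and 5 lists of related genes; each circle is 1 gene, filled where the adjusted p was under 0.05, and the bars are medians. The subunit genes crowd around 0, and *Dnajb1* among the heat shock genes is the 1 filled circle.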

How the data were processed

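RNA was isolated by the authors from the dorsal hippocampus, for 4 homecage and 4 SOR samples, and sequenced in pairs of 150-base reads. The methods name a stranded kit for total RNA freed of ribosomal RNA, STAR and featureCounts within bcbio-nextgen, while the labels name polyA RNA. The deposited values are expected counts (estimated counts) per gene from tximport, without normalization, 1 column per sample, and 52.6% are not whole. The quantifier and its strand setting are not given in the sources used here.

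Symbols, types and lengths came from GENCODE M21 (GRCm38). Counts were rounded and filtered with filterByExpr, which left 22018 genes, and scaled with upper-quartile factors as in the study. CPM are counts per 1e6 of the scaled library. The groups were compared in edgeR 4.0.16 (R 4.3.3) by its quasi-likelihood F test, p was adjusted by Benjamini-Hochberg over every tested gene, and the threshold of a call was an adjusted p of 0.05. The study also used RUVs, whose number of factors is not given, so 1, 2 and 3 factors were alternatives. Standard errors are the absolute log2 fold change divided by the root of F, and 95% intervals from a t distribution with the df of the fit. Permutation tests were exact and two-sided on log2 CPM with a prior count of 2. The fits were tested on simulated data.

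Total counts lay between 51406011 and 81525977, and between samples of a group the counts differed by more than counting error (chi-square per degree of freedom 11.1 to 49.2). Where samples share an animal, p-values would measure technical spread only.

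Genes given with all values were those of the active sites, the 3 lowest p in each direction, the extremes of each class and of the level, and *Psmc3ip*; in each list, called genes and the lowest p. A further symbol listed as a partner, *Paaf1*, was not analysed here. Others, such as *Psmd14*, *Pomp* and *Nfe2l1*, were chosen after their values were seen. Members and lists were chosen with earlier results of these data known. Transcripts were compared with BLAST 2.17.0, with at least 95% identity over 150 bases, and 16 of the 50 members had a matching gene. Python 3.11.15, pandas 2.3.3 and matplotlib 3.10.9 made tables and plots. The alternatives tried were scaling by TMM, RLE or library size, other filters, unrounded counts, the likelihood ratio test, DESeq2 1.42.0, limma-voom 3.58.1, RUVs factors, a replicate block and each sample left out. The labels do not say that the same replicate numbers in the groups mark pairs.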

Additional observations from a re-analysis of the deposited data

Results flagged for a closer look

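Among 100 groups of 4 samples (50 genes in each of 2 groups), 5 held a sample whose gap to its nearest neighbor, as a part of the whole range, exceeded Dixon's 95% critical value, and chance gives about 1 in 20. *Psmb5* was lowest in homecage 1, with 46.3 CPM against 48.8 to 49.0 CPM in the others and a gap of 0.954 of the range. *Psmc5* was highest in homecage 2, with 101 CPM against 94.8 to 95.1 CPM and a gap of 0.954. *Psmd7* was lowest in SOR 4, with 55.7 CPM against 58.3 to 58.8 CPM and a gap of 0.83. *Psme1* was highest in SOR 1, with 24.1 CPM against 21.2 to 21.6 CPM and a gap of 0.85. *Psmg4* was lowest in homecage 4, with 2.86 CPM against 3.12 to 3.16 CPM and a gap of 0.886. None of these genes had an unadjusted p under 0.05 between the groups.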

How the results depend on the processing

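The count of called members was 0 in both directions in all 21 alternatives, and with each sample left out it ranged from 0 to 0. The lowest adjusted p of a member over these fits was 0.113 (*Psmb9*, DESeq2, where 49 members had one). The member median log2 fold change was -0.0183 and ranged from -0.039 to 0.00337 with 1 sample left out. Counts over all genes moved more: 60 were higher and 8 lower, against 145 and 69 by the likelihood ratio test, 299 and 108 by DESeq2, 102 and 22 with 2 RUVs factors, and 80 and 17 with 3; with 1 sample left out they ranged from 26 to 49 and from 2 to 7. With the replicate number as a block, 37 genes were higher and 3 lower, 0 members were called and the member median was -0.0203. Same-numbered samples correlated between -0.0837 and 0.073, and differently numbered samples between -0.2 and 0.194. With 4 samples per group, these values cannot decide whether the numbers mark pairs. Of the heat shock genes, where 1 was called, DESeq2 called 4, and 1 RUVs factor or the block gave 2. *Psmc3* changed sign with TMM (0.00672), RLE (0.00805) and DESeq2 (0.0101) and with 1 sample left out ranged from -0.0324 to 0.0077, where *Psmb5* ranged from -0.0409 to 0.0398 and *Psmd2* from -0.0141 to 0.00836. *Psmd2* changed sign with TMM (0.0154), RLE (0.0167), library size scaling (0.0021) and DESeq2 (0.0187). The log2 fold changes of *Psmb1*, *Psmc6*, *Psmd8*, *Psmd12* and *Psmd13*, all near 0, also changed sign with TMM, RLE and DESeq2. *Psma8* ranged from -0.0797 (without SOR 1) to 0.498. The ratio of the highest to the lowest subunit level was 7.87, and 14.2 with merged exon length, an alternative chosen after seeing the data. The cause of these shifts was not tested. Depth limited *Psma8*, *Psmb11*, *Psmb9* and *Psme2b*, each with under 110 estimated counts per sample.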
